A study of Drosophila melanogaster with 2 samples.

Results

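The prohormone processing genes *amon*, *7B2*, *svr*, *Phm*, *Pal1*, and *Pal2* were read in single cells of the adult *Drosophila* midgut. They were chosen by name as the genes that cut and amidate peptide hormones, and all 6 were found among the 17737 genes in the files. The data were 1 library of each of 2 genotypes, and each library pooled 27 midguts of virgin females, raised at 18 °C and moved as adults to 29 °C for 10 days. The control library, *esg*[ts]/+, had the genotype *w; esgGal4, tubGAL80[ts], UASGFP/+;+/+*, and the second, *esg*[ts]/*D30A*, had *w; esgGal4, tubGAL80[ts], UASGFP/+;UAS-ImdD30A/+*. Both therefore carried the temperature-controlled *esg* driver and GFP, and only the second carried the *ImdD30A* transgene, which blocks the immune deficiency (IMD) pathway. The *esg* driver is active in progenitors, so neither enteroendocrine (EE) cells nor enterocytes were themselves the target of the transgene. Age beyond these 10 days is not given in the labels, and the paper describes the intestines profiled as 10-day-old.

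Peptide hormones are made as long precursors that pass through the secretory pathway and are cut and trimmed in secretory granules. *amon* encodes the fly counterpart of prohormone convertase 2, which cuts precursors after pairs of basic residues, and *7B2* encodes the helper protein that the convertase needs to become active. *svr* encodes a carboxypeptidase D, which removes the basic residues left at the new C terminus. Where the exposed last residue is glycine, *Phm* encodes the copper-dependent monooxygenase that hydroxylates it, and the lyases encoded by *Pal1* and *Pal2* complete the amide. Tachykinin, NPF, Dh31, AstA, Mip, CCHa1, and CCHa2 are amidated peptides, whereas mature AstC has a free C terminus.

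The genes lie on 3 chromosome arms (positions from BDGP6.54, matched by FlyBase identifier). *amon* (FBgn0023179) lies on the minus strand of 3R at 26697697 to 26714159, and *7B2* (FBgn0041707) on the plus strand of 3R at 5376780 to 5377975. *svr* (FBgn0004648) lies on the plus strand of X at 496446 to 509072 and overlaps 2 antisense RNA genes. *Phm* (FBgn0283509) lies on the minus strand of 2R at 23985175 to 23988455 and overlaps *Sox14* and *CG30178* on the opposite strand. *Pal1* (FBgn0283510) lies on the plus strand of 2R at 9959549 to 9963853 and overlaps *CG1418* and *Pdrg1*. *Pal2* (FBgn0262728) lies on the plus strand of 2R at 23688077 to 23690838 and overlaps *CG30183*. Cell Ranger counted whole genes from their 3′ ends, so isoforms could not be told apart.

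After filtering, 3958 cells of *esg*[ts]/+ and 4083 cells of *esg*[ts]/*D30A* remained, with a median of 1237 and 1703 unique molecular identifiers (UMIs, counted transcripts) per cell. Levels are given as UMIs of the gene per 1000000 UMIs of the cell group (CPM), and each interval is an exact 95% interval that covers counting error only. With 1 library per genotype no test was possible, and a difference between genotypes cannot be told apart from a difference between libraries. The libraries shared 132 barcodes, which included 0 EE cells of *esg*[ts]/+ and 1 EE cell of *esg*[ts]/*D30A*.

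EE-like clusters, named from *pros* and the peptide hormone genes, held 158 cells of *esg*[ts]/+ and 156 cells of *esg*[ts]/*D30A*. They carried *pros* at 1931 and 2021 CPM, against 6.36 and 11.2 CPM in enterocyte-like cells. EE cells with at least 3 *Tk* UMIs, and no more *AstC* UMIs, were called Tk cells (62 and 76 cells). Those with at least 3 *AstC* UMIs, and more of these than *Tk* UMIs, were called AstC cells (87 and 72 cells), and the remaining 9 and 8 cells carried too few of either. Of the cells with neither hormone, 6 and 8 lay in the cluster led by *AstA*, and their median depth was 1737 and 6676 UMIs, against 4739 and 7453 in Tk cells and 5075 and 10312 in AstC cells. The comparison classes were 574 and 561 progenitor-like cells and 2271 and 2195 enterocyte-like cells. Of 7 neuronal markers, 5 and 6 had UMIs in Tk cells and 4 and 5 in AstC cells, at 799.6 to 995 CPM in sum, and *VGlut* was at 0 in each of these groups. Hemocyte markers were at 0 in EE cells, and those of visceral muscle were at 0 in Tk cells and at no more than 6.14 CPM in sum in AstC cells. The share of neuronal transcripts in any result was not tested.

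All 6 genes were higher in EE cells than in enterocytes or progenitors, in both libraries. In *esg*[ts]/+, *7B2* stood at 3816 CPM (3680 to 3955) in EE cells, 7.59 CPM (6.24 to 9.14) in enterocytes, and 1.82 CPM (0.97 to 3.11) in progenitors. *amon* stood at 977 CPM (909 to 1049) in EE cells, 2.73 CPM in enterocytes, and 0.70 CPM in progenitors. *Pal2* stood at 2227 CPM (2124 to 2334), 5.95 CPM, and 2.66 CPM in the same order. In this library these 3 genes were thus at or below 7.59 CPM in both other classes, each summed over all its cells. Single clusters could be higher. The largest enterocyte-like cluster (696 cells) had *7B2* at 55.2 CPM, *Pal2* at 24.7 CPM, and *amon* at 17.1 CPM.

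*svr* and *Phm* were also highest in EE cells but kept a broader low level. In *esg*[ts]/+, *svr* had 1259 CPM (1182 to 1340) in EE cells, 18.5 CPM (16.3 to 20.8) in enterocytes, and 27.0 CPM (23.3 to 31.1) in progenitors. *Phm* had 2503 CPM (2394 to 2616), 24.3 CPM (21.9 to 27.0), and 39.5 CPM (34.99 to 44.4). *Pal1* was the scarce member in EE cells, with 13 UMIs in 158 cells of *esg*[ts]/+ (16.5 CPM, 8.80 to 28.2), against 1.85 CPM in enterocytes and 3.08 CPM in progenitors. In the few cells with neither hormone, *amon* had 450.1 and 803 CPM, *7B2* 1755 and 1807, *svr* 450.1 and 949, *Phm* 2116 and 3303, and *Pal2* 1891 and 1259 CPM, from 10 to 181 UMIs each, and all 5 were above their levels in enterocytes and progenitors.

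The library of *esg*[ts]/*D30A* gave the same ranking of EE cells over both other classes. There, *amon* had 982 CPM in EE cells, 7.27 CPM in enterocytes, and 0.54 CPM in progenitors. *7B2* had 2903, 12.3, and 1.31 CPM, and *Pal2* had 2006, 8.65, and 1.31 CPM. *svr* had 1559, 31.8, and 33.7 CPM, *Phm* had 2052, 28.3, and 29.8 CPM, and *Pal1* had 50.04, 2.81, and 8.59 CPM.

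**Figure D1:**
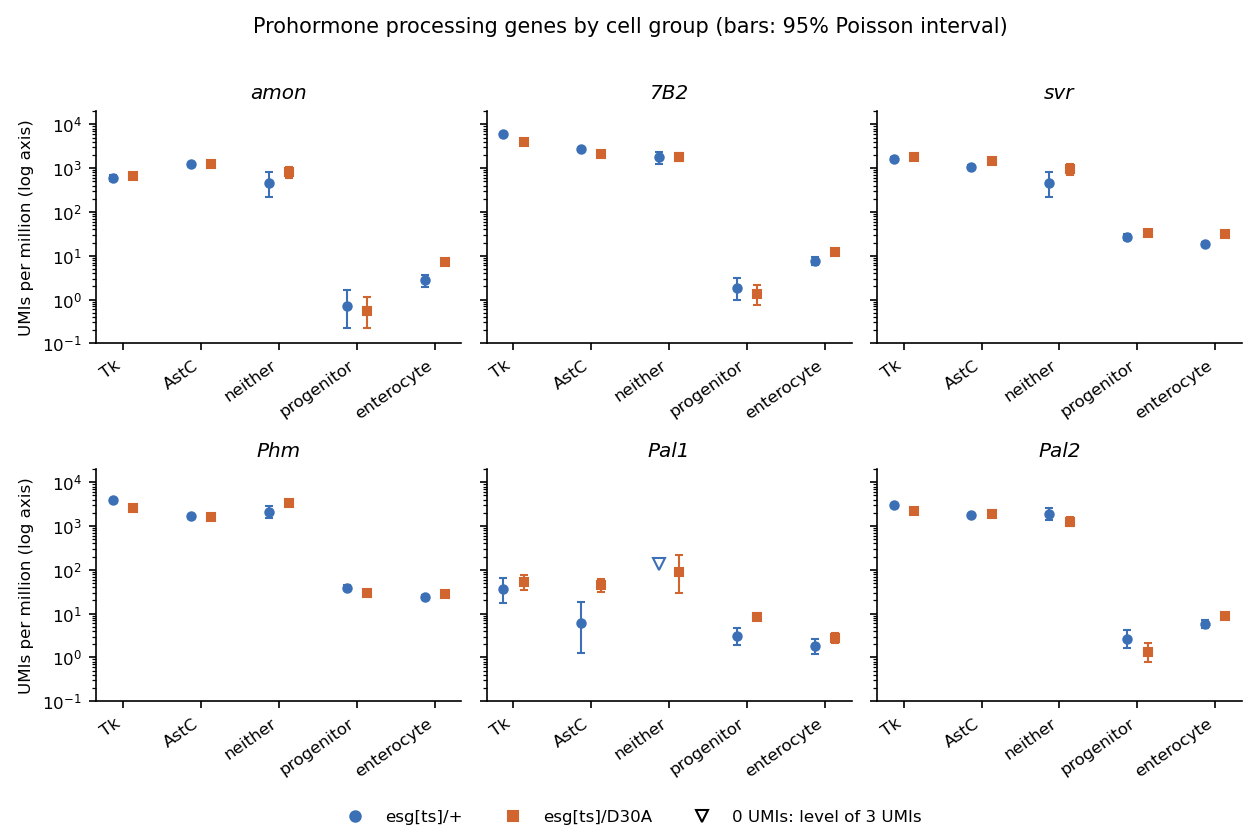
CPM (log axis) of each of the 6 genes in Tk, AstC, and neither-hormone EE cells, progenitors, and enterocytes; circles are *esg*[ts]/+, squares are *esg*[ts]/*D30A*, bars are exact 95% Poisson intervals, and the open triangle marks the level of 3 UMIs where none was counted. *amon*, *7B2*, and *Pal2* stay at or below 12.3 CPM in the progenitor and enterocyte classes, whereas *svr* and *Phm* stay between 18.5 and 39.5 CPM there.

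As folds, EE cells exceeded enterocytes of *esg*[ts]/+ by 503-fold (416 to 613) for *7B2*, 375 (302 to 470.03) for *Pal2*, and 357 (259.997 to 504) for *amon*. The fold was 103 (91.8 to 115.5) for *Phm*, 68.2 (59.6 to 78.3) for *svr*, and 8.95 (4.24 to 18.0) for *Pal1*. All 6 genes were at least 2-fold higher in EE cells, as were 65.8% of the 6837 genes with at least 20 UMIs over both classes, so the count alone is close to what most genes showed. The folds stood further out, with a median log2 ratio of 7.58 over the 6 genes and 1.54 over all genes tested. In *esg*[ts]/*D30A*, 6 of 6 genes and 54.8% of all genes tested passed 2-fold, with medians of 6.63 and 1.17. Against progenitors, 6 of 6 genes passed 2-fold in both libraries, beside 43.6% of all genes in *esg*[ts]/+ and 39.5% for *esg*[ts]/*D30A*. With cells classed by single marker transcripts in place of clusters, *Pal1* fell below 2-fold over progenitors, at log2 ratios of 0.33 and 0.87. It also did so over enterocytes of *esg*[ts]/+, at 0.77. There, *7B2*, *amon*, and *Pal2* fell to log2 ratios of 3.63, 3.98, and 4.02 over enterocytes, from 8.97, 8.48, and 8.55.

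The folds over enterocytes were set beside those of hormone genes and of *pros*, the transcription factor gene that marks EE cells. In *esg*[ts]/+ the fold was 382 for *AstC*, 354 for *Tk*, and 304 for *pros*, and in *esg*[ts]/*D30A* it was 141 for *AstC*, 289.8 for *Tk*, and 181 for *pros*, beside 135 for *amon*, 235 for *7B2*, and 232 for *Pal2*. *svr* (68.2 and 49.1), *Phm* (103 and 72.4), and *Pal1* (8.95 and 17.8) had lower folds than *AstC*, *Tk*, *pros*, *amon*, *7B2*, and *Pal2*. The other hormones with at least 20 UMIs ran from 10.2 for *ITP* to 877 for *NPF* in *esg*[ts]/+ and from 10.6 to 993 for the same genes of *esg*[ts]/*D30A*. This wide range held every processing gene except *Pal1* of *esg*[ts]/+, so it does not set *amon*, *7B2*, and *Pal2* apart. The part of free RNA in the enterocyte values was not tested.

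The ratio of *Phm* to *7B2* UMIs separated these patterns within a library. It was 0.66 (0.62 to 0.69) in EE cells of *esg*[ts]/+, 3.21 (2.58 to 4.01) in enterocytes, and 21.7 (12.5 to 41.2) in progenitors. In *esg*[ts]/*D30A* it was 0.71, 2.30 (1.97 to 2.69), and 22.6 (14.0 to 39.3). The progenitor ratios rest on 13 and 17 *7B2* UMIs, and 7 of the 13 came from 1 cell. For *svr* in *esg*[ts]/+ there were 14.8 (8.48 to 28.4) UMIs per *7B2* UMI in progenitors, against 0.33 (0.31 to 0.35) in EE cells. The part of free RNA in these ratios was not tested.

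In the 21 clusters other than EE, the 6 genes stayed below the levels of EE cells. *Pal1* came closest as a share of its EE level, with peaks of 5.68 and 27.5 CPM, and *svr* had the highest peak for *esg*[ts]/*D30A*. *svr* reached 94.98 CPM in 58 cells of *esg*[ts]/+ and 346 CPM (245 to 475) in 33 cells of *esg*[ts]/*D30A* in a small unnamed cluster led by *CR43314*, *amn*, and *Pde9*. In those cells *amon* had 0 and 1 UMIs and *7B2* had 2 and 0 UMIs, so *svr* was read there with almost no transcript of the convertase or its helper. *Phm* peaked at 159 and 133 CPM outside EE clusters, and *amon* at 21.1 and 22.7 CPM. The peaks were 59.1 and 37.9 CPM for *7B2* and 38.0 and 39.2 CPM for *Pal2*.

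Several members were detected in the same EE cell. A cell of the Tk or AstC group carried a median of 5 of the 6 genes in each library, and an enterocyte carried 0. *amon*, *7B2*, *Phm*, and *Pal2* were all detected in 41 of 62 Tk cells and 68 of 87 AstC cells of *esg*[ts]/+ (66.1%, 53.0 to 77.7, and 78.2%, 68.0 to 86.3). In *esg*[ts]/*D30A* the shares were 64.5% (52.7 to 75.1) and 93.1% (84.5 to 97.7). The same quartet was met in 8 of 2271 and 16 of 2195 enterocytes and in 1 of 574 and 0 of 561 progenitors, where the exact upper limit is 0.66% of cells with UMIs of all 4. These joint shares were not set against those from separate detection of each gene. Enterocytes were also shallower, at a median of 1019 and 1254 UMIs against 4739 and 7453 in Tk cells. Thinned to 650 UMIs, *7B2* was in 93.0% and 85.1% of Tk cells and 1.08% and 1.29% of enterocytes. *amon* was in 29.4% and 28.6% against 0.37% and 0.71%. Thinning to this depth left out 439 of the 2271 enterocytes of *esg*[ts]/+, 0 enterocytes of *esg*[ts]/*D30A*, and 0 Tk cells of either library. Among Tk and AstC cells with *Phm*, 95.1% to 100% also carried a lyase transcript. This was close to the share of all cells of these groups with *Pal2*, 94.3% to 97.4%. Among progenitors with *Phm*, 5.98% did so in *esg*[ts]/+ and 28.0% for *esg*[ts]/*D30A*. Over all progenitors, *Pal1* was found in 3.48% and 16.0% and *Pal2* in 2.61% and 2.85%, at a median depth of 9995 and 17043 UMIs.

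Shares of cells with a UMI followed depth as well as level. *amon* was detected in 67.7% of Tk cells (54.7 to 79.1) and 83.9% of AstC cells (74.5 to 90.9) of *esg*[ts]/+, and in 64.5% and 95.8% in *esg*[ts]/*D30A*. In enterocytes, where the gene was taken as background, the share was 1.37% and 2.46%, at a median depth of 1019 and 1254 UMIs. With every Tk and AstC cell thinned to 2200 UMIs, which left out 9 and 18 cells of *esg*[ts]/+ and 5 and 4 of *esg*[ts]/*D30A*, the *amon* shares were 58.2% and 80.2% in *esg*[ts]/+ and 55.8% and 80.9% for *esg*[ts]/*D30A*. The lower *amon* share of Tk cells was thus present at equal depth in both libraries. At the same depth, *7B2* was found in 97.8% to 99.9% of cells of either kind.

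The tachykinins of Tk cells are amidated and AstC is not, which made the pair a natural comparison. In *esg*[ts]/+ Tk cells, *7B2* had 5999 CPM (5714 to 6295), against 2674 CPM (2531 to 2823) in AstC cells. *Phm* had 4013 CPM (3779.9 to 4256) against 1667 CPM (1554 to 1785), and *Pal2* had 2992 CPM against 1809.9 CPM. *svr* had 1639 CPM against 1081 CPM, so 4 members of the pathway were higher in Tk cells. *amon* went the other way, at 586 CPM (499 to 684) in Tk cells and 1222 CPM (1126 to 1324) in AstC cells.

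On the log2 scale, the difference between Tk and AstC cells of *esg*[ts]/+ was 1.27 (1.14 to 1.40) for *Phm*, 1.17 (1.06 to 1.27) for *7B2*, 0.73 (0.59 to 0.86) for *Pal2*, 0.60 (0.42 to 0.78) for *svr*, and −1.06 (−1.32 to −0.81) for *amon*. *Pal1*, with 10 and 3 UMIs, gave 2.56 (0.60 to 5.06). Of the 5 genes with at least 20 UMIs, 3 passed 2-fold, beside 17.9% of the 3695 genes tested. In *esg*[ts]/*D30A* the signs were the same and the differences smaller, at 0.66 (0.55 to 0.78) for *Phm*, 0.91 (0.82 to 1.01) for *7B2*, 0.23 (0.12 to 0.35) for *Pal2*, 0.27 (0.14 to 0.40) for *svr*, and −0.91 (−1.09 to −0.73) for *amon*. There, 0 of 6 genes passed 2-fold, beside 17.3% of the 4706 genes tested. The median of all genes in that library was 0.13, and *amon* relative to it was −1.04. With cells classed by single marker transcripts in place of clusters, the sign turned for *7B2* (−0.082), *svr* (−1.17), and *Pal2* (−0.49) in *esg*[ts]/+ and for *svr* (−0.41) of *esg*[ts]/*D30A*, while *amon* and *Phm* kept theirs.

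AstC cells were not without the amidation genes. As a group they also carried amidated hormones, with *AstA* at 18739.7 and 26830.3 CPM, *CCHa2* at 13967 and 32067 CPM, and *CCHa1* at 11216 and 8497 CPM. *Phm* was detected in 95.4% and 100% of AstC cells and *Pal2* in 94.3% and 97.2%. These hormones were not spread evenly. The cluster led by *Orcokinin*, with 21 and 14 AstC cells, had *AstA* at 9.12 and 13.6 CPM and *CCHa2* at 18.2 and 40.9 CPM. *CCHa1* was at 63.9 and 0 CPM there, and its AstC cells had *Phm* at 2164 and 2086 CPM. The comparison of all Tk with all AstC cells was therefore not a comparison of cells with and without transcripts of amidated hormones.

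The opposite directions of *amon* and *7B2* gave their ratio a wide range among EE cells. Tk cells carried 10.2 *7B2* UMIs per *amon* UMI in *esg*[ts]/+ (8.70 to 12.1) and 6.06 for *esg*[ts]/*D30A* (5.42 to 6.79). AstC cells carried 2.19 (1.98 to 2.41) and 1.71 (1.58 to 1.86). A ratio of UMIs between genes depends on how each is captured, so only its change between cell groups is read here.

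**Figure D2:**
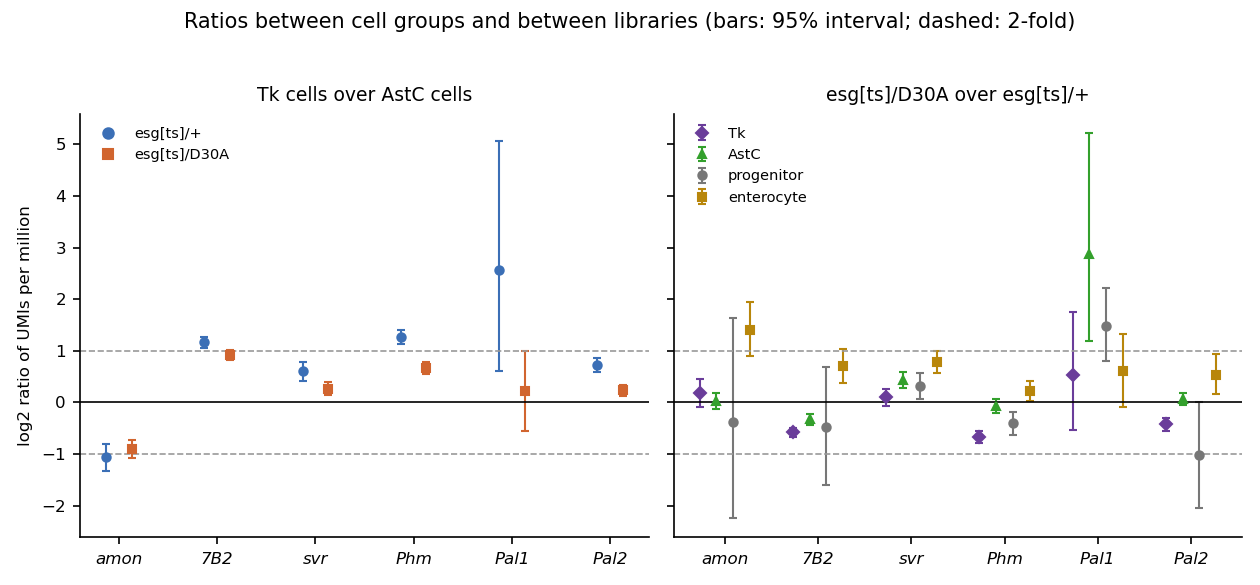
Left, log2 ratio of CPM in Tk over AstC cells for each gene and library; right, log2 ratio of *esg*[ts]/*D30A* over *esg*[ts]/+ in Tk cells, AstC cells, progenitors, and enterocytes. Points are ratios, bars are exact 95% intervals for counting error, and dashed lines mark 2-fold; *amon* alone lies below 0 on the left, at −1.06 and −0.91.

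The EE cells formed 4 clusters, described here by their leading hormone genes. Cluster 17 (61 and 60 cells) was led by *AstA*, *Mip*, *CCHa1*, and *CCHa2* and held most AstC cells. Cluster 18 (49 and 60 cells) was led by *Dh31* and *Tk* and held 36 and 53 Tk cells beside 11 and 7 AstC cells, cluster 22 (26 and 22 cells, all of them Tk cells) was led by *NPF*, and cluster 24 (22 and 14 cells) by *Orcokinin*. Clustering was run without the 6 genes, so their levels did not set the borders.

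*7B2* was highest in the *NPF* cluster, at 7995 CPM (7477 to 8540) in *esg*[ts]/+ and 6544 CPM (6147 to 6959) for *esg*[ts]/*D30A*. It had 3912 and 2877 CPM in the *Tk* and *Dh31* cluster, 3275 and 2005 CPM in the *Orcokinin* cluster, and 2508 and 2137 CPM in the *AstA* cluster. Only the lower 2 clusters changed places between libraries, and their intervals overlapped in *esg*[ts]/*D30A* (1694 to 2356 and 2024 to 2253 CPM).

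*svr* was also highest in the *NPF* cluster, at 3054 CPM (2737 to 3397) and 4107 CPM (3794 to 4438). The *Orcokinin* cluster followed, at 2144 and 3177 CPM. The *Tk* and *Dh31* cluster had 782 and 853 CPM and the *AstA* cluster 705 and 1257 CPM. The higher *svr* of Tk cells was thus found in their *NPF* cluster, while the *Tk* and *Dh31* cluster on its own was close to the *AstA* cluster in *esg*[ts]/+ and below it for *esg*[ts]/*D30A*.

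*amon* had a different order, with its highest level in the *Orcokinin* cluster, at 1971 CPM (1717 to 2252) and 2741 CPM (2375 to 3147). The *AstA* cluster had 947 and 1057 CPM, and the *Tk* and *Dh31* cluster (686 and 666 CPM) and the *NPF* cluster (714 and 767 CPM) did not differ beyond their intervals in either library. Yet *amon* was detected in 92.3% and 95.5% of *NPF* cluster cells, against 57.1% and 53.3% of *Tk* and *Dh31* cluster cells. The Tk cells of the *Tk* and *Dh31* cluster alone had 501 CPM (399 to 621) and 632 CPM (555 to 716), with *amon* in 50% and 50.9% of them, and its AstC cells had 1247 CPM (992 to 1548) and 849 CPM (649 to 1090.3).

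Among whole clusters, *Phm* and *Pal2*, which act in sequence, were both highest in the *NPF* cluster. In *esg*[ts]/+ *Phm* had 3794 CPM in the *NPF* cluster, 3197 in the *Tk* and *Dh31* cluster, 2226 in the *Orcokinin* cluster, and 1646 in the *AstA* cluster. *Pal2* had 3487, 2349, 1788, and 1858 CPM in the same clusters. The Tk cells of the *Tk* and *Dh31* cluster alone had *Phm* at 4158 CPM (3854 to 4481) in *esg*[ts]/+. That was above the *NPF* cluster (3440 to 4175), with overlapping intervals. In *esg*[ts]/*D30A* these Tk cells had 2302 CPM, below the *NPF* cluster. Their *Pal2*, at 2662 and 2031 CPM, was below it in both libraries. For *esg*[ts]/*D30A*, *Phm* had 3178, 2079, 2086, and 1753 CPM, and *Pal2* 2785, 1941, 1309 (1060.4 to 1599), and 1943 CPM, so the *Orcokinin* cluster was lowest for *Pal2* but not for *Phm*. *Phm* UMIs per *Pal2* UMI were 1.24 (1.03 to 1.51) and 1.59 (1.23 to 2.08) in the *Orcokinin* cluster, against 0.89 (0.79 to 0.997) and 0.90 (0.83 to 0.98) in the *AstA* cluster. *Orcokinin*, whose product has a free C terminus, took 224266 and 343597 CPM in that cluster.

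*7B2* per *amon* ran from 11.2 (8.89 to 14.3) and 8.53 (7.05 to 10.4) in the *NPF* cluster, through 5.70 and 4.32 in the *Tk* and *Dh31* cluster and 2.65 and 2.02 in the *AstA* cluster, to 1.66 (1.40 to 1.98) and 0.73 (0.59 to 0.91) in the *Orcokinin* cluster. The order was the same in both libraries, and in each library no neighbouring intervals overlapped.

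**Figure D3:**
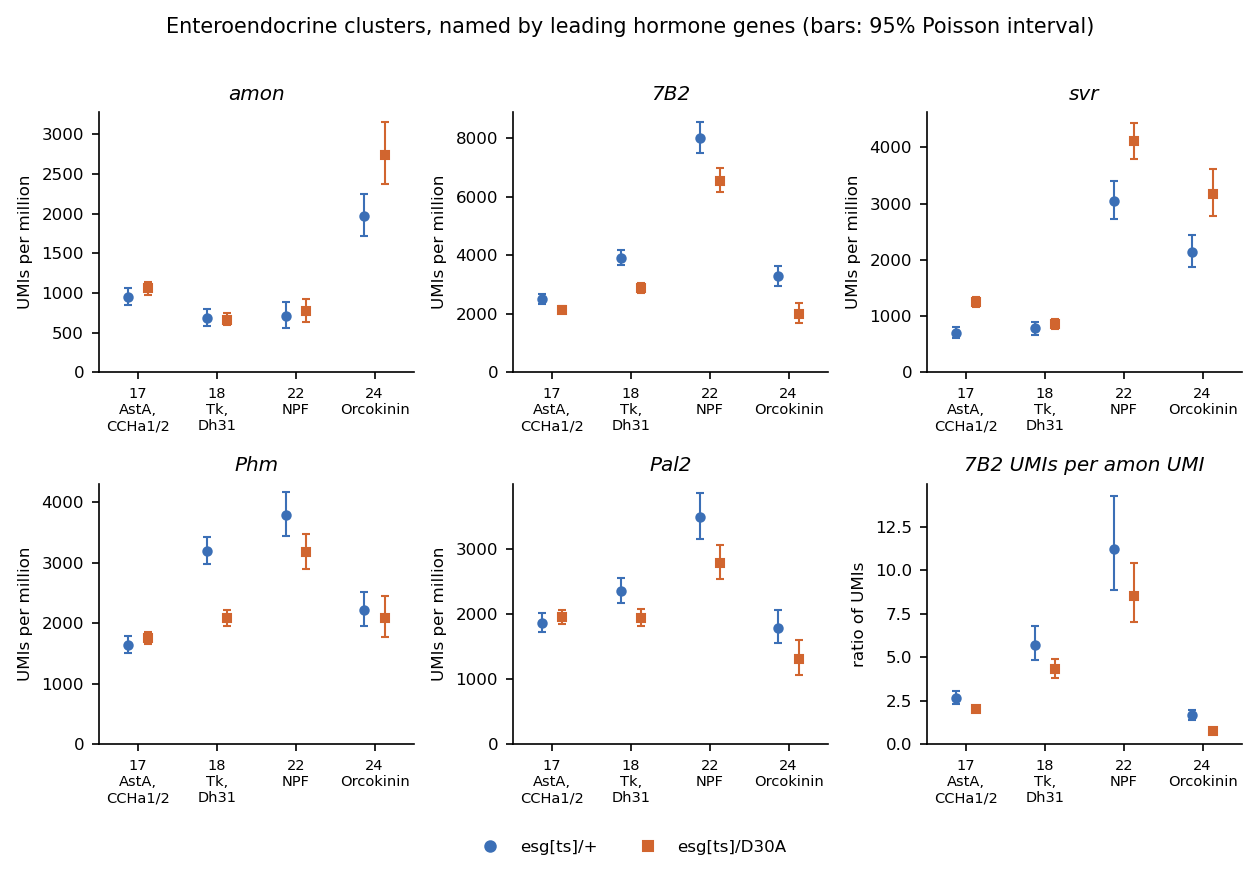
CPM of 5 genes, and *7B2* UMIs per *amon* UMI, in the 4 EE clusters; circles are *esg*[ts]/+, squares are *esg*[ts]/*D30A*, and bars are exact 95% intervals. *7B2* and *svr* are highest in the *NPF* cluster (7995 and 3054 CPM in *esg*[ts]/+), and *amon* in the *Orcokinin* cluster (1971 CPM).

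Single cells varied widely within a group. Among Tk cells with at least 2000 UMIs, *7B2* ranged from 788 to 16562 CPM in 56 cells of *esg*[ts]/+ (median 5898) and from 872 to 11237 CPM in 72 cells of *esg*[ts]/*D30A* (median 3528). Among AstC cells of that depth, it ranged from 331 to 8113 CPM (median 2611, 71 cells) and from 624 to 5163 CPM (median 1935, 68 cells). The groups overlapped, although the medians kept the order of the summed levels. *amon* was at 0 in 32.1% and 33.3% of these Tk cells but in 8.45% and 2.94% of these AstC cells.

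**Figure D4:**
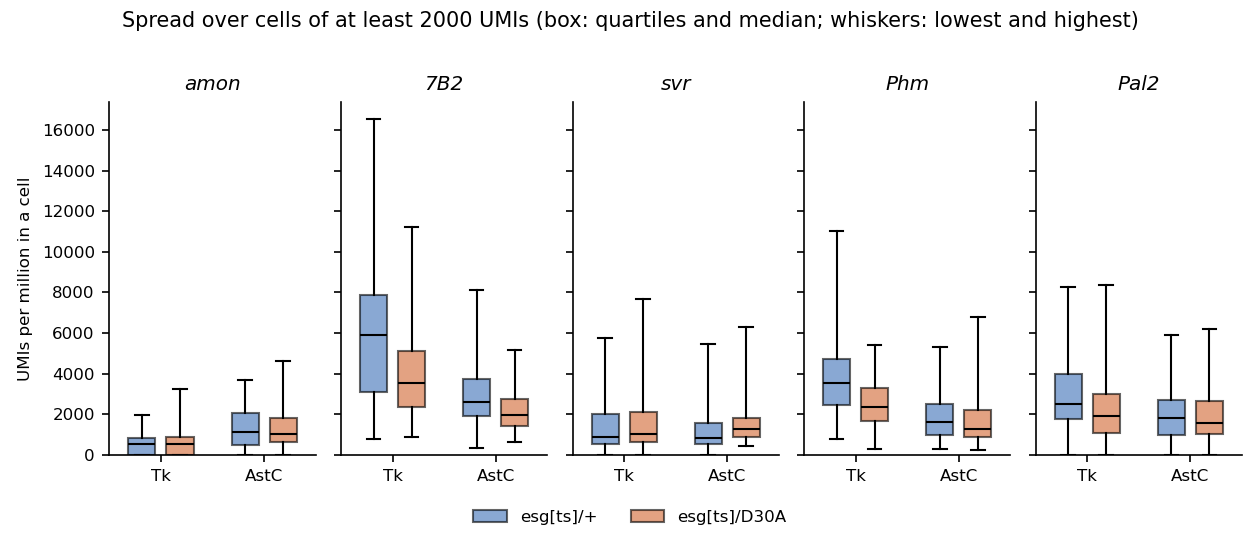
CPM in single Tk and AstC cells with at least 2000 UMIs, for 5 genes; boxes are quartiles with the median, whiskers run from the lowest to the highest cell, blue is *esg*[ts]/+, and orange is *esg*[ts]/*D30A*. The *7B2* median is 5898 and 3528 CPM in Tk cells and 2611 and 1935 CPM in AstC cells, and the ranges overlap.

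In the same cells, *7B2* and *Phm* varied together, with a Spearman rho of 0.54 and 0.59 over the 56 and 72 Tk cells and 0.54 and 0.47 over the 71 and 68 AstC cells. *svr* varied with the summed level of hormone genes in Tk cells (0.70 and 0.59), and less so in AstC cells (0.36 and 0.48). *Phm* had the opposite contrast, at 0.11 and 0.15 in Tk cells and 0.62 and 0.66 in AstC cells. Cells of a group shared a library and differed in depth and cluster, so these values are descriptions only.

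Over the 10 combinations of cell group and library, *7B2* and *Pal2* were the 2 members most alike, at a Pearson r of 0.997 for log2(CPM + 10). *Pal2* was the nearest of 6802 genes to *7B2*. The 5 genes nearest to *Pal2* included *7B2*, *pros* (0.998), the transcription factor that marks EE cells, and *Appl* (0.997), the fly amyloid precursor protein homolog. The gene nearest to *amon* was *Gabat* (0.998), to *svr* *Galphao* (0.996), and to *Phm* *CG12071* (0.992), and *CG6184* was among the 5 nearest to *7B2*, *Phm*, and *Pal2*. *Pal1* stood apart, at 0.59 to 0.70 with each of the other 5. Its nearest gene was *CG32147* (0.976), and all 10 points share libraries, depth, and the gap between EE cells and the rest.

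The genotypes were compared in each cell group. In EE cells as a whole, the log2 ratio of *esg*[ts]/*D30A* over *esg*[ts]/+ was 0.0069 (−0.12 to 0.14) for *amon*, −0.39 (−0.46 to −0.33) for *7B2*, 0.31 (0.20 to 0.42) for *svr*, −0.29 (−0.37 to −0.20) for *Phm*, −0.15 (−0.24 to −0.063) for *Pal2*, and 1.60 (0.73 to 2.58) for *Pal1*. *Pal1* was the only one of the 6 past 2-fold, beside 10.1% of the 5713 genes tested. The summed level of the 6 genes was 10799 CPM in *esg*[ts]/+ and 9552 CPM for *esg*[ts]/*D30A*.

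In Tk cells, 3 genes were lower in *esg*[ts]/*D30A*, with log2 ratios of −0.67 (−0.79 to −0.56) for *Phm*, −0.58 (−0.67 to −0.49) for *7B2*, and −0.43 (−0.56 to −0.30) for *Pal2*. None of the 6 passed 2-fold, beside 12.5% of the 3926 genes tested, with a median of 0.060 over them. The makeup of Tk cells also differed, since the *NPF* cluster gave 41.9% of them in *esg*[ts]/+ and 28.9% for *esg*[ts]/*D30A*. Within that cluster the ratio was −0.29 (−0.42 to −0.16) for *7B2*, −0.26 (−0.45 to −0.064) for *Phm*, and −0.32 (−0.53 to −0.12) for *Pal2*. Within the Tk cells of the *Tk* and *Dh31* cluster it was −0.60 (−0.73 to −0.46), −0.85 (−0.998 to −0.71), and −0.39 (−0.56 to −0.22). Over all cells of that cluster, AstC cells included, it was −0.44, −0.62, and −0.28. All 3 genes were thus lower in the Tk cells of both clusters. With classes from single transcripts, *Pal2* in Tk cells turned to 0.030.

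*7B2* was lower in *esg*[ts]/*D30A* within each of the 4 EE clusters, with log2 ratios of −0.23 (−0.36 to −0.10) in the *AstA* cluster and −0.71 (−0.995 to −0.43) in the *Orcokinin* cluster beside those above. *svr* was higher in each, by 0.83 (0.62 to 1.05) in the *AstA* cluster, 0.57 (0.30 to 0.84) in the *Orcokinin* cluster, 0.43 (0.23 to 0.62) in the *NPF* cluster, and 0.13 (−0.13 to 0.38) in the *Tk* and *Dh31* cluster, where the interval included 0. In AstC cells as a group, *svr* was higher by 0.43 (0.28 to 0.58), which turned to −0.11 with classes from single transcripts, *7B2* had a log2 ratio of −0.33 (−0.44 to −0.22), and 1 of the 6 genes, *Pal1*, passed 2-fold, beside 11.6% of the 4517 genes tested. EE cells of *esg*[ts]/*D30A* were deeper (median 8039 against 4739 UMIs) and carried less of the 21 digestive enzyme markers, at 7542 against 18098 CPM in Tk cells and 5371 against 13206 CPM in AstC cells. The part of either in the differences was not tested.

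*Pal1* was higher in *esg*[ts]/*D30A* in every cell group with UMIs to compare. In AstC cells it went from 3 to 32 UMIs, or 6.14 to 44.9 CPM, a log2 ratio of 2.87 (1.19 to 5.22). In progenitors it went from 22 to 111 UMIs, or 3.08 (1.93 to 4.66) to 8.59 CPM (7.06 to 10.3), a log2 ratio of 1.48 (0.81 to 2.21). In Tk cells the log2 ratio was 0.54 (−0.54 to 1.74) and in enterocytes 0.61 (−0.081 to 1.33), and both intervals included 0. Copper-cell-like cells had 3.17 and 7.18 CPM and cells of unnamed clusters 2.67 and 6.76 CPM. In the 9 neither-hormone EE cells of *esg*[ts]/+ no *Pal1* UMI was counted, with an exact upper limit of 166 CPM, and the 8 cells of *esg*[ts]/*D30A* had 5 UMIs (91.2 CPM). The share of cells with a *Pal1* UMI after thinning to 2200 UMIs was 6.80% and 11.7% in Tk cells and 1.74% and 9.995% in AstC cells, close to the level of 1 UMI.

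The relation of the 2 lyases differed between cell classes. EE cells held 135 (78.6 to 254) *Pal2* UMIs per *Pal1* UMI in *esg*[ts]/+ and 40.1 (31.4 to 51.99) for *esg*[ts]/*D30A*. Progenitors held 0.86 (0.44 to 1.67) and 0.15 (0.086 to 0.26). *Pal2* was found in 10 of 10 and 25 of 26 Tk cells with a *Pal1* UMI, in 3 of 3 and 27 of 27 such AstC cells, and in 1 of 20 and 1 of 90 such progenitors. These shares were close to those of *Pal2* over all cells of each group, which were 95.2% and 97.4% in Tk cells, 94.3% and 97.2% in AstC cells, and 2.61% and 2.85% in progenitors.

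In progenitors, where the transgene was driven, *Phm* was 39.5 CPM in *esg*[ts]/+ and 29.8 CPM for *esg*[ts]/*D30A*, a log2 ratio of −0.41 (−0.63 to −0.18), and *svr* was 27.0 and 33.7 CPM, a log2 ratio of 0.32 (0.072 to 0.57) that turned to −0.26 as a mean over cells. *Pal2* had 19 and 17 UMIs and a log2 ratio of −1.02 (−2.05 to 0.0067). *Pal1* and *Pal2* were thus past 2-fold in opposite directions, 2 of the 5 genes with at least 20 UMIs, beside 10.7% of the 7256 genes tested. Without the cell richest in each gene, 1 gene passed. In *esg*[ts]/+, 7 of the 13 progenitor *7B2* UMIs came from 1 cell, and without the richest cells the *7B2* log2 ratio was 0.46 in place of −0.47.

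In enterocytes, all 6 genes were higher in *esg*[ts]/*D30A*, where the median of all genes tested was also 0.44. *amon* had a log2 ratio of 1.41 (0.89 to 1.95), *svr* 0.78 (0.58 to 0.995), *7B2* 0.70 (0.37 to 1.04), *Pal1* 0.61 (−0.081 to 1.33), *Pal2* 0.54 (0.16 to 0.93), and *Phm* 0.22 (0.025 to 0.42). Relative to the median of all genes these were 0.97, 0.35, 0.27, 0.17, 0.10, and −0.22, so the sign for *Phm* turned. *amon* was the 1 of 6 past 2-fold, beside 18.6% of the 7405 genes tested, and 0 of 6 passed relative to that median. Hormone genes were higher there too, with *AstC* at 29.0 and 113 CPM and *CCHa2* at 33.3 and 139 CPM. A single enterocyte of *esg*[ts]/*D30A* held 24.3% of the 169 *Pal2* UMIs, and 4 enterocytes carried all 6 genes, against 0 in *esg*[ts]/+. Without the barcodes that both libraries share, 0 of 6 genes passed, and with classes from single transcripts the signs of *amon* (−0.39), *7B2* (−0.25), *Phm* (−0.13), and *Pal2* (−0.24) turned.

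Other genes of the pathway were read from lists. Of 9 genes for other steps of precursor processing, 6 could be tested between EE cells and enterocytes of *esg*[ts]/+. Of these, 5 were at least 2-fold higher in EE cells and 0 lower, beside 65.8% of all genes tested that were higher. The median log2 was 1.499, beside 1.54 for all genes. *Fur1*, a furin-type convertase, had 398 and 445 CPM in EE cells, 18.7 and 24.1 CPM in enterocytes, and 2.80 and 2.32 CPM in progenitors, and was the highest of the list in EE cells. In *esg*[ts]/+, *Fur1* was higher in Tk than in AstC cells by 0.90, opposite to *amon*. The signal peptidase subunit genes *twr*, *Spase22-23*, and *Spase25* were higher in EE cells by a smaller margin, at 286, 215, and 169 CPM in *esg*[ts]/+ against 92.0, 53.0, and 65.8 CPM in enterocytes. *QC*, which encodes a glutaminyl cyclase, and the carboxypeptidase gene *CG4678* had 0 UMIs in EE cells of both libraries. For this list, 4 of 7 testable genes in *esg*[ts]/*D30A* were at least 2-fold higher in EE cells than in enterocytes and 0 lower. Of all genes tested there, 54.8% were higher, and the median log2 was 1.30 for the list and 1.17 for all genes. Between genotypes, 1 of 7 was at least 2-fold higher in EE cells of *esg*[ts]/*D30A*, beside 10.1% of all genes that passed either way. It was the signal peptidase subunit gene *Spase12*, at 47.0 and 114 CPM. *Spase12* was also higher in enterocytes (22.5 and 58.6 CPM) and progenitors (18.5 and 32.6 CPM).

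Of 6 genes for amidation cofactors and copper supply, 4 could be tested between EE cells and enterocytes of *esg*[ts]/+. Of these, 1 was at least 2-fold higher and 1 lower, beside 65.8% of all genes tested that were higher. The median log2 was 0.15, beside 1.54 for all genes. The higher gene was *ATP7*, a copper pump of the secretory pathway, at 22.9 and 15.2 CPM in EE cells and 4.03 and 5.42 CPM in enterocytes. *Ctr1B*, a copper importer, was the lower gene, at 29.2 CPM in EE cells and 60.4 CPM in enterocytes of *esg*[ts]/+ and 12.9 and 73.0 CPM for *esg*[ts]/*D30A*. Progenitors had less of it than EE cells, at 2.24 and 2.78 CPM. *nemy*, a cytochrome b561 gene, had 0 and 2 UMIs in EE cells. Between EE cells and enterocytes of *esg*[ts]/*D30A*, the same 2 genes, 1 higher and 1 lower, were the ones past 2-fold among the 5 testable genes. Of all genes tested there, 54.8% were at least 2-fold higher.

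Of 6 regulators, 5 could be tested between EE cells and enterocytes, and all 5 were at least 2-fold higher in EE cells of both libraries (median log2 6.75 and 6.55), beside 65.8% and 54.8% of all genes tested. Over progenitors, 4 of 5 passed in *esg*[ts]/+ and 3 of 5 in *esg*[ts]/*D30A*, beside 43.6% and 39.5% of all genes. The regulator *pros* named the EE clusters, so its place in these counts is a description. *dimm*, which encodes a factor known to drive the peptidergic secretory program in fly neurons, had 66.1 and 62.2 CPM in EE cells and 0.62 and 0.67 CPM in enterocytes. It stood at 72.4 CPM in Tk and 53.2 CPM in AstC cells of *esg*[ts]/+ and at 90.8 and 43.5 CPM in *esg*[ts]/*D30A*. *tap*, a basic helix-loop-helix factor, was lower in AstC cells of *esg*[ts]/*D30A* (96.7 CPM) than of *esg*[ts]/+ (254 CPM). Among AstC cells it lay mainly in those of the *Orcokinin* cluster, at 1142 and 927 CPM, a log2 ratio of −0.30 (−0.75 to 0.14), and these gave 22.0% and 10.3% of the UMIs of AstC cells. *crc*, the fly ATF4, was lower in Tk cells of *esg*[ts]/*D30A* (118 CPM) than of *esg*[ts]/+ (242 CPM). In EE cells as a whole *crc* had 180 and 108 CPM, against 146 and 134 CPM in progenitors. *Xbp1*, a factor of the unfolded protein response, had 386 and 393 CPM in EE cells, against 164 and 207 CPM in progenitors.

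All 9 testable amidated hormones of 10 in *esg*[ts]/+, and 10 of 10 for *esg*[ts]/*D30A*, were at least 2-fold higher in EE cells than in enterocytes. So were 3 of 3 hormones with a free C terminus, beside 65.8% and 54.8% of all genes tested. Over progenitors, 8 of 9 and 9 of 10 amidated hormones passed, beside 43.6% and 39.5% of all genes tested. The exception, *ITP*, had 36.8 and 47.8 CPM in EE cells and 47.9 and 74.2 CPM in progenitors. Since most of these hormones named the EE clusters, these counts are descriptions. In EE cells, 5 of the 10 amidated hormones were at least 2-fold higher in *esg*[ts]/*D30A* and 0 lower (median log2 0.71). Among these 5, *sNPF* rested on 6 and 37 UMIs, 31 of the 37 in the 8 neither-hormone cells. Of the 3 hormones with a free C terminus, 0 passed 2-fold. Over all genes, 10.1% passed 2-fold either way, with a median of −0.0080. Of the 6 processing genes, *Pal1* (1.60) and *svr* (0.31) were higher, *amon* (0.0069) was level, and *7B2*, *Phm*, and *Pal2* were lower (median −0.072). *Tk* itself had 5709 and 14057 CPM in EE cells and 16090.2 and 33545 CPM in Tk cells. The hormone genes together took 10.4% and 11.7% of the UMIs of EE cells.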

How the data were processed

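The deposited files hold raw UMI counts for every gene and barcode. The authors produced them in Cell Ranger 3.0 (3.0.2 per the file headers). The submitters' notes also name Seurat 3.1.1. The genome build is not given in the sources used here. The libraries came from midgut cells dissociated with 1 mg/ml elastase and enriched by density gradient. They held 4242 and 6322 barcodes with 30383272 and 53275921 UMIs.

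Barcodes were dropped below 200 genes or above 25% mitochondrial UMIs, a limit that 3.39% and 31.9% exceeded. Scrublet (scanpy 1.11.5) called 0 doublets in either library by its own threshold, so the 140 and 218 highest scores were removed, a number set by the expected doublet rate of each library. Cells were integrated and clustered in Seurat 5.3.0 (R 4.3.3), using 30 dimensions of 2000 variable genes without the 6 members at resolution 0.8. Cluster borders, and with them the number of EE cells, shifted with the linear-algebra kernel, so 1 kernel was fixed. A cluster was named when at least 3 markers were found in 10% of its cells at 1.5-fold over other cells. UMIs were summed per group and library (Python 3.11.15, scipy 1.17.1). Intervals are exact Poisson or Clopper-Pearson at 95%, and UMIs of 1 library are not replicates. Genes needed 20 UMIs over both groups. A count of 0 was set to 3 UMIs in counts of genes past 2-fold. The ratio script was tested on simulated data. Genes named were the 6 members, the pathway lists, and the 5 genes nearest to each member by Pearson r of log2(CPM + 10) among genes with 200 UMIs. The members and lists were chosen with earlier results of these data known. The split of Tk and AstC cells by cluster was added after the data were seen. Alternatives were other filters, resolutions, class rules, thresholds, and scalings.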

Additional observations from a re-analysis of the deposited data

Results flagged for a closer look

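Log2 ratios of *esg*[ts]/*D30A* over *esg*[ts]/+ had intervals on opposite sides of 0 in different cell groups for 3 genes, and none of these differences was tested. *7B2* had 0.70 in enterocytes, against −0.58 in Tk cells and −0.33 in AstC cells. *Phm* had 0.22 in enterocytes, against −0.67 in Tk cells and −0.41 in progenitors. *Pal2* had 0.54 in enterocytes, against −0.43 in Tk cells. The enterocyte values lie at 12.3 CPM or less for *7B2* and *Pal2*, and the median of all genes in that class was 0.44.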

How the results depend on the processing

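No paired analysis was possible because each genotype had 1 library. Of the counts of members past 2-fold and the summed levels, 143 alternatives moved little and 23 moved, and none turned. The count for Tk over AstC cells of *esg*[ts]/*D30A* was 0 and became 1 without doublet removal, with no cell filter, with a mean over cells, and with scaling to the median of all genes. The genotype count was 1 in AstC cells and 2 with classes from single transcripts. It was 2 in progenitors and 1 with the stricter filter, no filter, single transcripts, no shared barcodes, or no top cell. It was 1 in enterocytes and 0 without shared barcodes, with a mean over cells, or scaled to the median. The summed level of 10799 CPM in EE cells of *esg*[ts]/+ became 10389.7 without doublet removal, 10368 with no filter, 2377 with single transcripts, and 12046 without hormone UMIs. That of 9552 CPM in *esg*[ts]/*D30A* became 9332 without doublet removal, 9279 with no filter, 9385 without integration, 2103 with single transcripts, 10816 without hormone UMIs, and 10015 as a mean over cells. The single-transcript EE class holds 217 and 265 cells with 2473691 and 4728960 UMIs.

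Of the alternative log2 ratios, 723 moved little, 126 moved, and 15 turned. For EE cells over enterocytes or progenitors, each of the 6 genes had its lowest ratio with single transcripts. *Pal1* then gave 0.77 over enterocytes of *esg*[ts]/+ and 0.33 and 0.87 over progenitors, below 2-fold. With single transcripts, Tk over AstC cells of *esg*[ts]/+ gave −0.082 for *7B2*, −1.17 for *svr*, and −0.49 for *Pal2*, and *svr* in *esg*[ts]/*D30A* gave −0.41. The genotype ratio became 0.030 for *Pal2* in Tk cells and −0.11 for *svr* in AstC cells with single transcripts, and −0.26 for *svr* in progenitors as a mean over cells. In enterocytes, single transcripts gave −0.39 for *amon*, −0.25 for *7B2*, −0.13 for *Phm*, and −0.24 for *Pal2*. A mean over cells gave −0.035 for *7B2*, −0.55 for *Phm*, and −0.14 for *Pal2* there, and scaling to all genes gave −0.22 for *Phm*. The cause was not tested. The share of all genes past 2-fold between genotypes in EE cells, 10.1%, was 17.5% with 5 UMIs, 5.37% with 100 UMIs, and 28.5% at 1.5-fold. Scaling to the median moved the higher share of all genes past 2-fold from 90.1% to 49.0% and from 85.3% to 50% for EE cells over enterocytes, from 82.3% to 51.1% and from 77.7% to 51.6% over progenitors, from 54.0% to 42.4% for Tk over AstC cells of *esg*[ts]/*D30A*, and between genotypes from 74.0% to 63.7% in Tk cells, 75.9% to 62.9% in progenitors, and 94.7% to 76.9% in enterocytes. *Pal1* is limited by its 13 and 66 UMIs in EE cells.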
